A study of Homo sapiens with 36 samples.

Results

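The respiratory chain is built from subunits of 2 genomes, and the transcripts of both were followed here in LNCaP cells treated with inhibitors of the cell cycle kinases CDK4 and CDK6. Members were chosen by name from GENCODE release 44: the 13 protein-coding genes of mitochondrial DNA, and the nuclear protein-coding genes whose symbols mark a structural subunit of complexes I to V, without assembly factors. The rule gave 101 genes, 13 mitochondrial and 88 nuclear, and it uses no measured value. Of these, 98 were in the table of 29872 genes, whereas COX6A2, COX7A1 and ATP5MF-PTCD1 were not analysed here. The tests covered 93 members, all 13 mitochondrial and 80 nuclear. These comprised 7 mitochondrial and 37 nuclear subunits of complex I, 4 nuclear subunits of complex II, 1 and 10 of complex III, 3 and 12 of complex IV, and 2 and 17 of complex V. The other 5 nuclear genes did not reach a normalised count of 10 in 3 libraries of a time point. They were COX4I2 (0 to 1.09 over the 36 libraries), COX6B2 (0 to 4.34), COX7B2 (0.973 to 9.88), COX8C (0 to 1.16) and ATP5MGL (0 to 10.8), of which the first 4 are tissue-restricted forms of complex IV subunits.

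LNCaP is an established androgen-sensitive line derived from a prostate cancer metastasis, so the values describe 1 line of tumour cells in culture. Cells received vehicle, 1 or 2 µM AU2-94, 1 or 2 µM atirmociclib or ribociclib at 2 µM, and were harvested at 24 h or 72 h, which gave 12 groups of 3 biological replicates (36 libraries). AU2-94 and atirmociclib are selective for CDK4, whereas ribociclib inhibits both CDK4 and CDK6. In the study's kinase assays AU2-94 was more selective than atirmociclib, which inhibited CDK6 and several related kinases more strongly. The labels give the vehicle groups a dose of 2 µM as well, and wells for 72 h were seeded more thinly than wells for 24 h, so time and seeding density cannot be told apart. RNA from whole wells was sequenced as total RNA, and the authors deposited a normalised count per gene, which is a signal in units close to reads. Library totals of these values ranged from 20675156 to 22692555, and the reads behind them are not known.

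In oxidative phosphorylation, complexes I to IV pass electrons from NADH and succinate to oxygen and complexes I, III and IV pump protons across the inner mitochondrial membrane, while complex V, the ATP synthase, uses the proton gradient to make ATP. Complex II is encoded entirely in the nucleus, whereas the other complexes need subunits from both genomes. The mitochondrial genome is transcribed from both strands into long precursors that are cut into separate RNAs, and nuclear subunit genes are transcribed one by one, translated in the cytosol and imported. Normal prostate epithelium limits its citrate oxidation, and prostate cancer cells are known to restore it, which is background and was not measured here.

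The cells carried the markers of their labels. The luminal prostate gene KLK3, at 19802 to 55194 normalised counts, was high in every library, and the defining genes of fibroblasts (DCN), leukocytes (PTPRC), T cells (CD3E), endothelium (PECAM1) and basal epithelium (KRT5) had a median of 0. The other listed markers of such cells were not at 0, with 194 to 644 for COL1A1, 5.45 to 36.9 for COL3A1, 184 to 713 for VWF and 4.35 to 88.6 for KRT14, and their part in the results was not tested. One library stood apart in the genes described here. In ribociclib 72 h replicate 2 the nuclear members were higher by a median of 0.20 (log2) than in the other libraries of its group, whereas the same measure was -0.10 to 0.08 in the other 35 libraries. Its mitochondrial members were higher by 0.12, against -0.11 to 0.10 in the other 35. Counts and calls that changed without this library are given with and without it.

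The 13 mitochondrial genes lie on the circular chromosome M, 12 of them on the plus strand (GRCh38, GENCODE release 44). MT-ND1 (chrM:3307-4262), MT-ND2 (chrM:4470-5511), MT-ND3 (chrM:10059-10404), MT-ND4L (chrM:10470-10766), MT-ND4 (chrM:10760-12137) and MT-ND5 (chrM:12337-14148) encode the proton-pumping membrane arm of complex I together with MT-ND6 (chrM:14149-14673), the only one on the minus strand. MT-CYB (chrM:14747-15887) encodes cytochrome b of complex III. MT-CO1 (chrM:5904-7445), MT-CO2 (chrM:7586-8269) and MT-CO3 (chrM:9207-9990) encode the core of complex IV, and MT-ATP8 (chrM:8366-8572) and MT-ATP6 (chrM:8527-9207) encode membrane subunits of complex V. Each is a single coding exon.

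Neighbouring mitochondrial genes share bases in places, which is why reads there cannot be assigned to 1 gene. MT-ATP8 and MT-ATP6 share 46 bases, 22.2% of MT-ATP8, and MT-ND4L and MT-ND4 share 7 bases, 2.36% of MT-ND4L. The shared bases are printed in capitals with 10 bases on each side, from the plus strand of hg38 at chrM:8517-8582 and chrM:10750-10776. The capitals open in both cases with the ATG of the downstream gene.
MT-ATP8/MT-ATP6: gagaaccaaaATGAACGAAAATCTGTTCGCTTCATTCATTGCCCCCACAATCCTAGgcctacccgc
MT-ND4L/MT-ND4: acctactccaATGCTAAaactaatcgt

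Mitochondrial transcripts were far more abundant than nuclear ones. Per kilobase of exon, the mean normalised count over all libraries had a median of 127697 over the 13 mitochondrial genes, from 6154 for MT-ND6 to 258094 for MT-CO1. The same quantity had a median of 823 over the 80 nuclear members, from 81.6 for NDUFA12, an accessory subunit of complex I, to 8262 for ATP5F1B, the catalytic beta subunit of the ATP synthase. The length counted every annotated exon of a gene, so a long annotation lowers the value. NDUFA12 had 8223 bases and a median count of 668, whereas NDUFB6 had 1386 bases and a median of 515. The order of nuclear genes, the medians by complex and the size of the gap between the genomes depend on these lengths. By complex, the nuclear medians per kilobase were 476 for complex I, 389 for complex II, 1207 for complex III, 1321 for complex IV and 965 for complex V. Ranked by mean normalised count among all deposited genes, without regard to length, MT-CO1 was at place 3 and MT-ND4 at place 4, while MT-ND6 was at place 1213.

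The share of the library taken by mitochondrial mRNA was highest with 2 µM atirmociclib at both times and differed little between vehicle and AU2-94. At 24 h the 13 genes made up 6.51% ± 0.07 (SD, n = 3) of the normalised count in vehicle, 6.64% ± 0.20 and 6.63% ± 0.27 with 1 and 2 µM AU2-94, 6.93% ± 0.29 and 7.50% ± 0.21 with 1 and 2 µM atirmociclib, and 7.08% ± 0.11 with ribociclib. The 3 libraries with 2 µM atirmociclib (7.28% to 7.70%) lay above the 3 vehicle libraries (6.45% to 6.60%). At 72 h the share was 7.11% ± 0.33 in vehicle, 7.30% ± 0.07 and 7.21% ± 0.21 with AU2-94, 8.0% ± 0.22 and 8.50% ± 0.17 with atirmociclib, and 7.48% ± 0.24 with ribociclib. Both atirmociclib groups (7.75% to 8.66%) lay above vehicle (6.76% to 7.42%) without overlap. These are sums over the members and carry no test, and in bulk RNA fewer cells and less RNA per cell cannot be told apart. The deposited values do not list the mitochondrial rRNA genes MT-RNR1 and MT-RNR2. The share is thus of the listed genes and not of all RNA sequenced. The total of all genes moved as well, with 20675156 to 20824457 in vehicle against 21686783 to 22054249 for 2 µM atirmociclib at 24 h, and 21436280 to 21617499 against 22577368 to 22692555 at 72 h. The calls with totals over non-mitochondrial genes set equal are given with the gene tests.

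Set against each other, mitochondrial transcripts were higher relative to nuclear ones than in vehicle with every treatment at 72 h, but not at 24 h. The log2 ratio of the mitochondrial sum to the nuclear sum at 24 h was 2.84 ± 0.02 in vehicle, 2.76 ± 0.05 and 2.79 ± 0.08 with 1 and 2 µM AU2-94, 2.83 ± 0.05 and 2.88 ± 0.05 with 1 and 2 µM atirmociclib, and 2.82 ± 0.01 with ribociclib. The libraries with 1 µM AU2-94 (2.71 to 2.79) lay below those of vehicle (2.81 to 2.85), and the other 4 treated groups overlapped vehicle. Within complex I the ratio at 24 h was 3.12 to 3.16 in vehicle and lower in every library with 1 µM AU2-94 (2.92 to 3.03), 2 µM AU2-94 (2.96 to 3.10) and ribociclib (3.04 to 3.07). Within complex III it was 2.38 to 2.43 in vehicle and lower in every library of all groups (2.07 to 2.36) but 2 µM atirmociclib (2.27 to 2.43), and within complex IV only 1 µM AU2-94 (4.11 to 4.15) lay wholly below vehicle (4.15 to 4.24). At 72 h it was 2.86 ± 0.07 in vehicle (2.79 to 2.94), 3.04 ± 0.03 and 3.04 ± 0.05 with AU2-94, 3.18 ± 0.05 and 3.20 ± 0.06 with atirmociclib, and 3.02 ± 0.05 with ribociclib. All 15 treated libraries at 72 h (2.97 to 3.25) lay above all 3 vehicle libraries. A scaling of each library by a single factor leaves this ratio as it is. All treated group means also exceeded that of vehicle within each of the 4 complexes that hold subunits of both genomes, with group means at 72 h of 3.16 in vehicle and 3.31 to 3.57 in treated groups for complex I, 2.46 and 2.55 to 2.74 for complex III, 4.22 and 4.34 to 4.47 for complex IV, and 0.46 and 0.56 to 0.79 for complex V, although in each complex 1 or more treated groups overlapped vehicle.

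**Figure D1:**
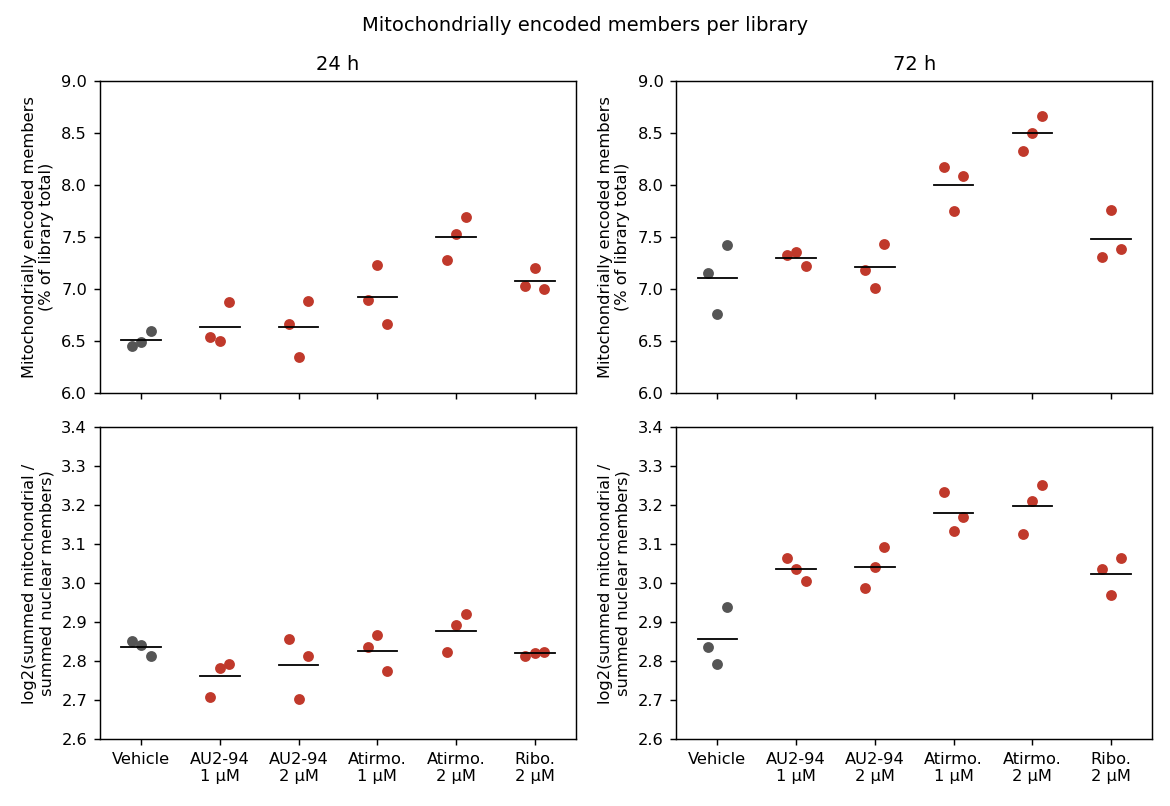
Mitochondrial mRNA share of the library total in percent (top) and log2 ratio of the mitochondrial to the nuclear sum of normalised counts (bottom), at 24 h (left) and 72 h (right). Each point is a library and each line a group mean (n = 3). At 72 h the 15 treated libraries have ratios of 2.97 to 3.25 and the 3 vehicle libraries 2.79 to 2.94, whereas at 24 h 1 µM AU2-94 (2.71 to 2.79) lies below vehicle (2.81 to 2.85) and the other groups overlap vehicle.

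Treated groups were then set against the vehicle group harvested with them, gene by gene, on log2(normalised count + 1) with limma over all tested genes. A member was called at a Benjamini-Hochberg adjusted p of at most 0.05, and all log2 fold changes of members lay between -0.63 and 0.67. The 5 comparisons of a time point share their 3 vehicle libraries and so are not independent. The first percentages given with each comparison are the shares of all tested genes called higher and lower in it. In lists of 5 values the order is 1 µM AU2-94, 2 µM AU2-94, 1 µM atirmociclib, 2 µM atirmociclib and ribociclib.

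At 24 h nearly all called nuclear subunits were higher than in vehicle, with 1 constant exception in complex II. With 1 µM AU2-94, where 14.3% of all genes were called higher and 13.5% lower, 36 of 80 nuclear members rose and 1 fell, and 3 of 13 mitochondrial genes rose and 1 fell. With 2 µM AU2-94 (16% and 14.9% of all genes) 27 nuclear members rose and 2 fell, and 2 mitochondrial genes rose and 2 fell. With 1 µM atirmociclib (16.6% and 15.4%) 41 nuclear members rose and 1 fell, and 6 mitochondrial genes rose and 0 fell. With 2 µM atirmociclib (18.6% and 16.2%) 60 nuclear members rose and 1 fell, and 11 mitochondrial genes rose and 0 fell. With ribociclib (16.8% and 15.2%) 50 nuclear members rose and 1 fell, and 6 mitochondrial genes rose and 1 fell. Under quantile normalisation, which gives the most abundant genes nearly the same value in every library by construction, the mitochondrial calls became 1 higher and 5 lower, 0 and 6, 0 and 3, 0 and 2, and 0 and 5. With totals over non-mitochondrial genes set equal, 1 µM atirmociclib had 24 nuclear calls in place of 42, of which 22 were higher and 2 lower. Its mitochondrial calls were then 2 higher and 0 lower. Median log2 fold changes over the nuclear members were 0.14, 0.11, 0.16, 0.24 and 0.21, beside medians over all genes near 0. The number of nuclear calls rested in part on single libraries, since it was 22 without vehicle replicate 1 in place of 37 for 1 µM AU2-94, 16 without AU2-94 2 µM replicate 3 in place of 29, and 25 without atirmociclib 1 µM replicate 2 in place of 42.

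At 72 h most called nuclear subunits were lower than in vehicle. With 1 µM AU2-94, where 15.4% of all genes were called higher and 17% lower, 0 nuclear members rose and 37 fell. With 2 µM AU2-94 (14.2% and 15.3%) 0 rose and 40 fell. With 1 µM atirmociclib (20% and 19.8%) 2 rose and 30 fell, and at 2 µM (20.9% and 19.6%) 13 rose and 21 fell. With ribociclib (15.5% and 15.4%) 3 rose and 27 fell, or 1 and 38 without replicate 2. Nuclear medians were -0.18, -0.21, -0.10, -0.03 and -0.08, the last being -0.16 without that library. Of the mitochondrial genes 9 of 13 rose with either dose of atirmociclib and 0 fell, with 1 call each under quantile normalisation, while 1 rose with each dose of AU2-94 and 2 fell at 2 µM, and 2 rose with ribociclib, or 1 without replicate 2 or under the replicate block. Mitochondrial medians were -0.08, -0.06, 0.22, 0.32 and 0.08 (0.05 without that library) at 72 h and 0.02, 0.00, 0.13, 0.24 and 0.11 at 24 h, and those of both atirmociclib doses became -0.02 and 0.00 at 24 h and -0.02 and 0.03 at 72 h under quantile normalisation. With totals over non-mitochondrial genes set equal, 2 µM atirmociclib had 7 mitochondrial calls at 24 h and, among nuclear members at 72 h, 8 higher and 27 lower.

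**Figure D2:**
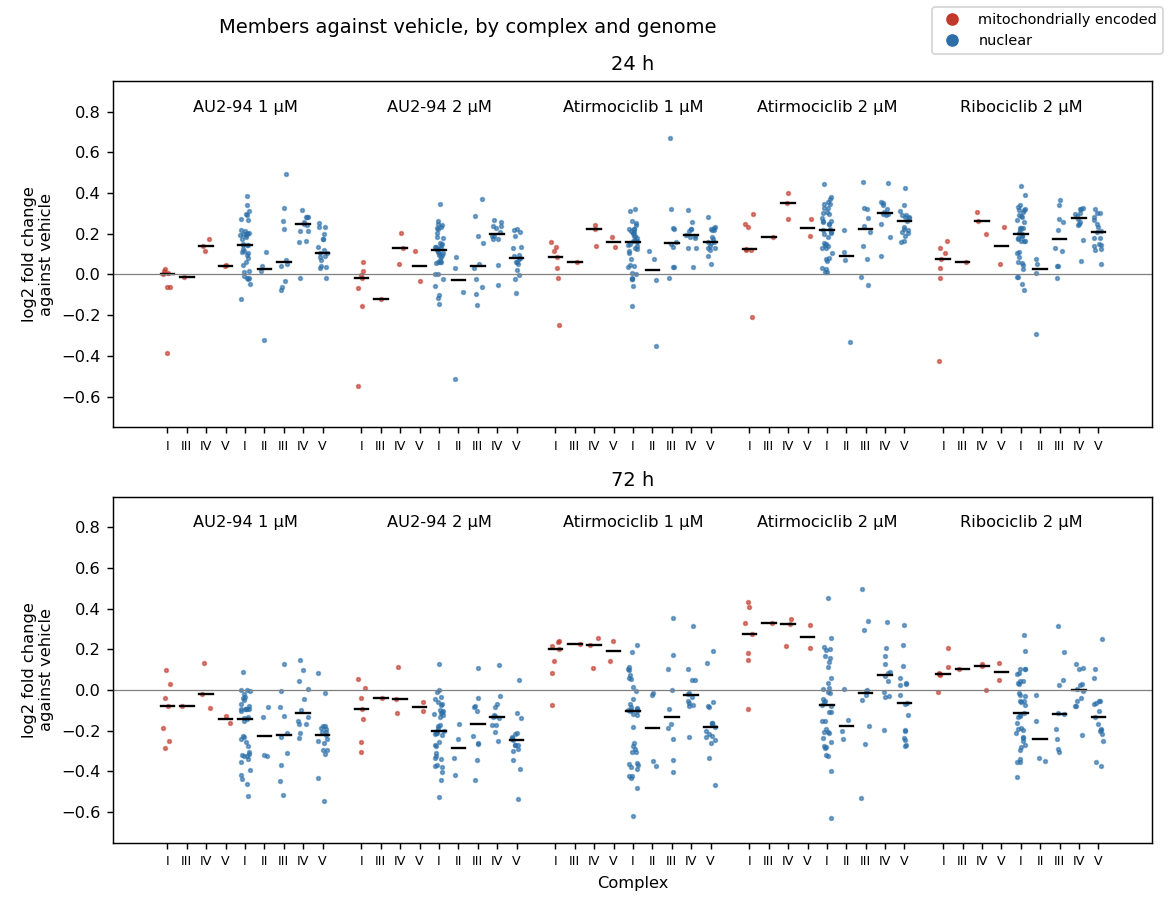
Log2 fold change against the vehicle of the same time point for every tested member, by complex, treatment and genome. Each point is a gene and each bar the median of its group of genes. Over all nuclear members the medians of the 5 treatments run from 0.11 to 0.24 at 24 h and lie between -0.21 and -0.03 at 72 h, and mitochondrial medians with 2 µM atirmociclib are 0.24 and 0.32, or 0.00 and 0.03 under quantile normalisation.

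The complexes differed in how far their nuclear members moved. At 24 h complex IV had 10, 10, 9, 11 and 11 of 12 nuclear members called higher across the 5 treatments and 0 called lower, the largest share of the 5 complexes with every treatment but 2 µM atirmociclib, where complex V had the largest. Complex I had 15, 11, 18, 25 and 21 of 37 higher, complex III 3, 2, 5, 7 and 6 of 10, and complex V 8, 4, 9, 16 and 12 of 17. Complex II had 0, 0, 0, 1 and 0 of 4 higher and 1 of 4 lower with each treatment. The median over members of the mean log2 fold change of the 5 treatments was 0.24 for complex IV, 0.16 for complex I, 0.15 for complex V, 0.14 for complex III and 0.03 for complex II. At 72 h complex IV had 3, 4, 1, 1 and 1 of 12 nuclear members lower and a median of -0.06. Complex I had 17, 17, 15, 12 and 13 of 37 lower (median -0.13), complex II 2, 3, 2, 1 and 2 of 4 (-0.23), complex III 5, 5, 4, 2 and 3 of 10 (-0.15), and complex V 10, 11, 8, 5 and 8 of 17 (-0.17). Without ribociclib replicate 2 the ribociclib counts were 3 for complex IV, 17 for complex I, 3 for complex II, 5 for complex III and 10 for complex V. The difference between complexes was not tested.

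The catalytic subunit of cytochrome c oxidase, MT-CO1, was the only member called higher in all 5 treatments at both times. At 24 h its normalised count was 326415, 341381 and 327123 in the 3 vehicle replicates, 377819.7, 356541 and 389229 with 1 µM AU2-94, 382792, 366285 and 396152 with 2 µM AU2-94, 389900.2, 412852 and 373723 with 1 µM atirmociclib, 438235, 429135 and 446191 with 2 µM atirmociclib and 408907, 411775 and 411577 with ribociclib. Every treated library was above every vehicle library. These gave log2 fold changes of 0.17, 0.20, 0.24, 0.40 and 0.31 (SE at most 0.04, largest adjusted p = 0.0016). At 72 h it was 351509.6, 365316 and 373563 in vehicle, 399828, 400839.6 and 394632 with 1 µM AU2-94, 387322, 377843 and 412653 with 2 µM AU2-94, 437819, 418026 and 446418 with 1 µM atirmociclib, 457039, 465069 and 464019 with 2 µM atirmociclib, and 385526, 404194 and 399649 with ribociclib. The groups again did not overlap, and 2 µM atirmociclib was highest. The log2 fold changes at 72 h were 0.13, 0.11, 0.26, 0.35 and 0.13 (largest adjusted p = 0.014). The call for 2 µM AU2-94 was lost without its replicate 3 or without vehicle replicate 1, with log2 fold changes of 0.07 to 0.09. Under quantile normalisation the values were 0.00 to 0.11 and none was called, since this gene held almost the same rank in every library.

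The other core subunits of complex IV moved less evenly. MT-CO2, which takes up electrons from cytochrome c, had 96332 to 99968 normalised counts in vehicle and 101671 to 130787 in treated libraries at 24 h, with log2 fold changes of 0.14, 0.13, 0.22, 0.35 and 0.26, all called. The vehicle libraries lay below all treated ones, yet the AU2-94 calls were lost in 4 (1 µM) and 5 (2 µM) of 6 omissions of a library, with values of 0.12 to 0.15 and 0.08 to 0.14, and the call at 2 µM also under the replicate block, which enters the replicate number as a term in the fit. At 72 h its log2 fold changes were -0.09, -0.12, 0.11, 0.22 and 0.00, called lower with 2 µM AU2-94 (adjusted p = 0.029) and higher with both atirmociclib doses, which turned to -0.06 each under quantile normalisation. MT-CO3, the third core subunit, was called at 24 h in all but 2 µM AU2-94 (0.12, 0.05, 0.14, 0.27 and 0.20), and every one of these values was -0.12 under quantile normalisation. The replicate block removed its call with 1 µM AU2-94 at 24 h and that with ribociclib at 72 h. At 72 h it was called with atirmociclib (0.22 and 0.32, the first -0.03 under quantile normalisation) and with ribociclib (0.12, adjusted p = 0.042, lost without ribociclib replicate 2 or vehicle replicate 2, at 0.06 to 0.08). Calls lost in 3 or 4 of 6 omissions were those of MT-CO2 at 72 h with 2 µM AU2-94 (-0.12 to -0.06) and 1 µM atirmociclib (0.07 to 0.10), and of MT-CO3 at 24 h with 1 µM AU2-94 (0.08 to 0.10) and 1 µM atirmociclib (0.11 to 0.13).

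Among the mitochondrial subunits of complexes I, III and V most calls were of higher values with atirmociclib. MT-ND1 had 117361, 111812 and 124754 normalised counts in vehicle at 72 h, 118618, 117628 and 120231 with 2 µM AU2-94, 152100.1, 158682 and 165906 with 2 µM atirmociclib and 124892, 135017 and 123424 with ribociclib. The atirmociclib libraries lay above all the others named, and the AU2-94 libraries lay inside the vehicle range. Its log2 fold changes were 0.00, 0.06, 0.16, 0.30 and 0.17 at 24 h and 0.03, 0.01, 0.23, 0.43 and 0.12 at 72 h, of which those with atirmociclib at both times and with ribociclib at 24 h were called. MT-ND4 was called with 2 µM atirmociclib at 24 h (0.24, or -0.08 under quantile normalisation) and with both doses at 72 h (0.22 and 0.41, the first -0.05 under quantile normalisation). MT-CYB showed the same calls as MT-ND4, at 0.18 for 24 h and 0.23 and 0.33 for 72 h, where the value at 1 µM was -0.02 under quantile normalisation. MT-ND5 had calls of 0.12 at 24 h (atirmociclib 2 µM, -0.06 under quantile normalisation) and of 0.24 and 0.33 at 72 h, the first of them -0.04 under quantile normalisation. MT-ND2 had called rises of 0.11, 0.25 and 0.13 with 1 and 2 µM atirmociclib and ribociclib at 24 h and of 0.14 and 0.27 with atirmociclib at 72 h, all between -0.05 and -0.01 under quantile normalisation. MT-ATP6, which forms part of the proton channel of the ATP synthase, had called rises of 0.18, 0.27 and 0.23 in the same 3 treatments at 24 h and of 0.14 and 0.32 with atirmociclib at 72 h, with -0.06 for atirmociclib 1 µM and ribociclib at 24 h and -0.04 for atirmociclib 1 µM at 72 h under quantile normalisation. MT-ATP8 was called once, at 0.19 with 2 µM atirmociclib at 24 h, and MT-ND4L was called in none of the 10 comparisons. MT-ND3 was called lower with 2 µM AU2-94 at both times (-0.16, adjusted p = 0.011, and -0.30, adjusted p = 0.03) and higher with 2 µM atirmociclib at 24 h (0.12, adjusted p = 0.039, or -0.06 under quantile normalisation and not called under the replicate block). Several of these calls rested on 1 library. At 24 h the calls with 1 µM atirmociclib were lost for MT-ND1 without its replicate 2 (0.12) and for MT-ATP6 without that replicate or vehicle replicate 2 (0.13 to 0.16), and those with 2 µM atirmociclib for MT-CYB and MT-ND5 without its replicate 3 (0.16 and 0.09) and for MT-ATP8 without its replicate 2 (0.15). The MT-ND3 fall at 24 h was lost without vehicle replicate 3 (-0.12). Calls lost in 3 or more of 6 omissions were those of MT-ND2 with 1 µM atirmociclib at both times and with ribociclib, of MT-ND3 with 2 µM AU2-94 at 72 h and 2 µM atirmociclib at 24 h, and of MT-ATP6 with 1 µM atirmociclib at 72 h.

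MT-ND6, the only subunit encoded on the minus strand, was lower than in vehicle in part of the treatments at 24 h. Its normalised count was 4046, 3429.8 and 4643 in vehicle, 3336, 2962 and 2919 with 1 µM AU2-94, 2695, 2859 and 2679 with 2 µM AU2-94, 3119, 3588 and 3427 with 1 µM atirmociclib, 3500.0, 2761 and 4308 with 2 µM atirmociclib and 2814, 3309 and 2847 with ribociclib. The AU2-94 and ribociclib libraries lay below all vehicle libraries, whereas the atirmociclib libraries overlapped vehicle. On the log2 scale the differences from vehicle were -0.39, -0.55, -0.25, -0.21 and -0.43 (SE at most 0.12), called for 1 µM AU2-94 (adjusted p = 0.027), 2 µM AU2-94 (0.0025) and ribociclib (0.013). The call for 1 µM AU2-94 was lost in 4 of 6 omissions (-0.38 to -0.28), and that for ribociclib was lost without ribociclib replicate 1 or vehicle replicate 3 (-0.39 and -0.32). Relative to the sum of the other 12, MT-ND6 had a log2 ratio of -8.39 ± 0.21 in vehicle at 24 h and group means of -9.0 to -8.79 in treated cells. At 72 h vehicle had 4009, 3077 and 2909, AU2-94 2827, 2592 and 2713 at 1 µM and 2476, 2625 and 3235 at 2 µM, atirmociclib 3074, 3346 and 3000.1 at 1 µM and 2798, 3316 and 3172 at 2 µM, and ribociclib 3251, 5671 and 2979.6. The 1 µM AU2-94 libraries lay below all vehicle libraries, the other groups overlapped vehicle, the highest value was that of the ribociclib library that stood apart, and none of the 5 comparisons was called. Whether reads were counted by strand is not given in the sources used here, so RNA from the opposite strand of this gene cannot be told apart from it.

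**Figure D3:**
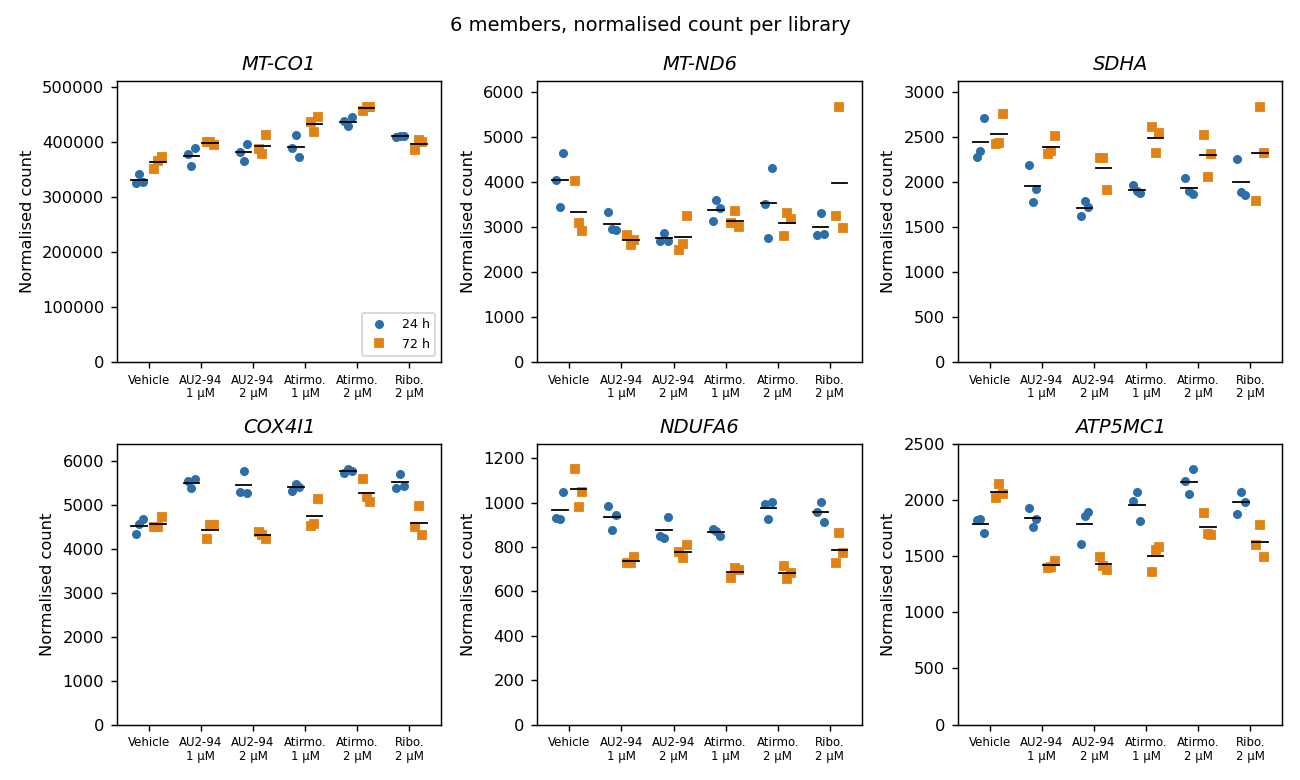
Normalised counts of MT-CO1, MT-ND6, SDHA, COX4I1, NDUFA6 and ATP5MC1 in every library, by group and time point, with a line at each group mean (n = 3). MT-CO1 lies above vehicle in all treated libraries at both times (differences of 0.00 to 0.11 under quantile normalisation), COX4I1 is higher at 24 h, and NDUFA6 and ATP5MC1 are lower in all treated libraries at 72 h.

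Among nuclear members, 22 were called higher with all 5 treatments at 24 h and 1 lower, where 9.2% and 7.82% of all tested genes were. They comprised 8 of complex I, 2 of complex III, 8 of complex IV and 4 of complex V. NDUFC2 (chr11:78068297-78079862, minus strand), an accessory subunit of the membrane arm of complex I, had 1929, 2129 and 2197 normalised counts in vehicle and 2423 to 2893 in the 15 treated libraries. No treated library reached down to the vehicle range. Its log2 fold changes were 0.38, 0.35, 0.32, 0.38 and 0.39 (SE at most 0.06, largest adjusted p = 0.00074). UQCR11 (chr19:1597169-1605473, minus strand), a small subunit of complex III, had 2051, 2056 and 2218 in vehicle and 2414 to 3110.0 in treated libraries, with log2 fold changes of 0.33, 0.29, 0.32, 0.46 and 0.36. It also rose at 72 h with atirmociclib (0.35 and 0.50) and ribociclib (0.32, or 0.22 without replicate 2). COX4I1 (chr16:85798633-85807068, plus strand), the ubiquitous form of subunit 4 of complex IV, had 4336, 4572 and 4671 in vehicle and 5274 to 5813 in treated libraries. These groups were far apart, with log2 fold changes of 0.28, 0.27, 0.26, 0.35 and 0.29 (SE at most 0.04, largest adjusted p = 0.00011). At 72 h only 2 µM atirmociclib gave a call for it, 0.21 (adjusted p = 0.0082), which was lost without replicate 1 of that group (0.16).

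COX7A2L (chr2:42333546-42425088, minus strand), which helps to join complexes III and IV into supercomplexes, had 1224 to 1366 normalised counts in vehicle and 1427 to 1786 in treated libraries at 24 h, with log2 fold changes of 0.28, 0.24, 0.32, 0.45 and 0.32. NDUFA2 (chr5:140638740-140647771, minus strand), an accessory subunit of complex I, had 661 to 711 in vehicle and 747 to 966 in treated libraries, with log2 fold changes of 0.34, 0.26, 0.25, 0.34 and 0.43. Both genes had vehicle libraries below all treated libraries. For NDUFA2 the call with 2 µM AU2-94 was lost in 4 of 6 omissions and that with 1 µM atirmociclib in 3 of 6. NDUFA1 (chrX:119871832-119876662, plus strand), a membrane-arm subunit needed for complex I assembly, was called with 4 treatments at 24 h (0.19, 0.14, 0.21, 0.22 and 0.33, 2 µM AU2-94 not called, adjusted p = 0.15) and with none at 72 h, but lower with ribociclib there without replicate 2 (-0.24). The replicate block removed its call with 1 µM AU2-94. The ubiquitous complex IV paralogues COX6A1 and COX6B1 were called higher with all 5 treatments at 24 h, COX6A1 at 0.21, 0.24, 0.19, 0.29 and 0.24 and COX6B1 at 0.21, 0.17, 0.22, 0.32 and 0.25. COX6B1 lost the call with 2 µM AU2-94 under the replicate block at both times. COX7A2 was called with 4 treatments (0.25, 0.21, 0.13, 0.31 and 0.26, 1 µM atirmociclib not called), and COX7B with atirmociclib at both doses and ribociclib (0.19, 0.19 and 0.30). At 72 h COX7A2 and COX7B had no calls, while COX6A1 and COX6B1 were called lower with both AU2-94 doses at -0.13 and -0.14 and at -0.21 and -0.21, and COX6B1 also with ribociclib without replicate 2 (-0.16). Of the calls in this group of genes, those of COX6B1 with AU2-94 at both times, COX6A1 with AU2-94 at 72 h, COX7B with atirmociclib, COX7A2 with 2 µM AU2-94 (0.16 to 0.18) and NDUFA1 with all but ribociclib were each lost in 2 or more of 6 omissions, while those of COX7A2 with 1 µM AU2-94 and ribociclib were lost without vehicle replicate 2 (0.20 and 0.21). The COX6B1 calls at 72 h were lost in 6 of 6 omissions with 1 µM AU2-94 and in 5 with 2 µM.

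The exception at 24 h was in complex II. SDHA (chr5:218303-257082, plus strand), the flavoprotein that oxidises succinate, was the only nuclear member called lower with all 5 treatments. Its normalised count was 2283, 2348 and 2709 in vehicle, 2187, 1778 and 1920.3 with 1 µM AU2-94, 1619, 1795 and 1719 with 2 µM AU2-94, 1965, 1897 and 1875 with 1 µM atirmociclib, 2049, 1896 and 1872 with 2 µM atirmociclib and 2255, 1886 and 1861 with ribociclib. All treated libraries lay below the lowest vehicle library, and 2 µM AU2-94 was the lowest group. The log2 fold changes were -0.32, -0.51, -0.35, -0.33 and -0.29 (SE at most 0.08, largest adjusted p = 0.012). Without vehicle replicate 3, the highest of its group, the value for 1 µM AU2-94 was -0.24 and was not called, and the ribociclib call was lost without ribociclib replicate 2, ribociclib replicate 3 or vehicle replicate 3 (-0.25 to -0.22). Over 444 bases SDHA is 98.2% identical to ENSG00000291055, whose mean normalised count was 168, so its counts are uncertain by what the counting assigned between them. At 72 h, where SDHA was called lower with ribociclib when replicate 2 was left out (-0.31), it was not called with any treatment over all libraries (2429 to 2756 in vehicle and 1794 to 2841 in treated libraries).

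Among the other subunits of complex II, SDHD and SDHB were called lower at 72 h. SDHD (chr11:112086824-112120016, plus strand), a membrane anchor, had 1297, 1323 and 1338 normalised counts in vehicle, 1093, 1034 and 1036 with 1 µM AU2-94, 1002, 1103 and 1042 with 2 µM AU2-94, 1010.3, 1039.9 and 1009.5 with 1 µM atirmociclib, 1178, 1093 and 1083 with 2 µM atirmociclib, and 1105, 1018 and 992 with ribociclib. The vehicle libraries were tightly grouped and above all others. These gave log2 fold changes of -0.32, -0.33, -0.37, -0.24 and -0.35 (SE at most 0.06, largest adjusted p = 0.003). SDHB (chr1:17018664-17054032, minus strand), the iron-sulphur subunit, had 1019.5 to 1102 in vehicle and 757 to 963 in treated libraries, again without overlap, and was called lower in all but 2 µM atirmociclib (-0.32, -0.42, -0.35, -0.20 and -0.33, that value at adjusted p = 0.052). SDHC (chr1:161314381-161363206, plus strand), the other anchor, had single calls of 0.22 with 2 µM atirmociclib at 24 h and of -0.17 with 2 µM AU2-94 at 72 h, the latter lost in 4 of 6 omissions (-0.18 to -0.11). Neither SDHB nor SDHD was called at 24 h.

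At 72 h 0 nuclear members were called higher with all 5 treatments and 18 were called lower, where 8.54% and 8.59% of all tested genes were. With the ribociclib comparison taken without replicate 2 the 18 were joined by NDUFB4 and NDUFB7. They comprised 9 of complex I, 1 of complex II, 2 of complex III, 1 of complex IV and 5 of complex V. NDUFA6 (chr22:42085526-42090884, minus strand), an accessory subunit of complex I, had 1150.2, 981 and 1048 normalised counts in vehicle, 727, 729 and 756 with 1 µM AU2-94, 779.6, 749 and 808 with 2 µM AU2-94, 661, 705 and 697 with 1 µM atirmociclib, 712, 656 and 684 with 2 µM atirmociclib, and 726, 863 and 773 with ribociclib. No treated library reached the vehicle range, and atirmociclib gave the lowest values. On the log2 scale the differences from vehicle were -0.52, -0.44, -0.62, -0.63 and -0.43 (SE at most 0.07, largest adjusted p = 0.00019), while at 24 h no comparison was called. NDUFS7 (chr19:1383527-1395589, plus strand), a core subunit that carries the last iron-sulphur cluster before ubiquinone, had 1077, 1394 and 1211 in vehicle and 789 to 981 in treated libraries, with log2 fold changes of -0.46, -0.52, -0.42, -0.40 and -0.35. NDUFS6 (chr5:1801407-1816048, plus strand), a zinc-binding subunit of the same arm, had 1949, 1928 and 1809 in vehicle and 1294 to 1871 in treated libraries, with log2 fold changes of -0.44, -0.40, -0.42, -0.32 and -0.28. Vehicle and treated libraries overlapped for NDUFS6 only through ribociclib replicate 2, the library that stood apart, at 1871. The ribociclib call of NDUFS6 was lost in 4 of 6 omissions (-0.27 to -0.16), while without replicate 2 its value was -0.41. UQCR10 (chr22:29767369-29770413, plus strand), a small subunit of complex III, had 1689, 1605 and 1492 in vehicle and 1067 to 1483 in treated libraries. Its log2 fold changes were -0.45, -0.44, -0.40, -0.27 and -0.29, and the calls for 2 µM atirmociclib and for ribociclib were each lost without 1 library (vehicle replicate 1 at -0.23 and ribociclib replicate 3 at -0.22). COX8A, the ubiquitous form of the smallest complex IV subunit, was the complex IV member of the 18, at -0.24, -0.25, -0.23, -0.19 and -0.22, after rises of 0.16, 0.17, 0.25 and 0.17 at 24 h in all treatments but 1 µM atirmociclib. Each of its 72 h calls was lost in at least 1 omission of a library. Its 24 h calls with 1 and 2 µM AU2-94 were lost in 4 and 2 of 6 omissions, and that with ribociclib in 1.

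The c-ring of the ATP synthase, the rotor through which protons pass, is encoded by ATP5MC1, ATP5MC2 and ATP5MC3, which give the same mature protein. All 3 genes were among the 18. ATP5MC1 (chr17:48892765-48895871, plus strand) had 2017, 2139.6 and 2054 normalised counts in vehicle at 72 h, 1392, 1407 and 1454 with 1 µM AU2-94, 1495, 1411 and 1376 with 2 µM AU2-94, 1358, 1557 and 1584 with 1 µM atirmociclib, 1888, 1696 and 1689 with 2 µM atirmociclib, and 1598, 1775 and 1496 with ribociclib. Treated libraries lay below vehicle throughout, and the AU2-94 groups had the lowest means. The log2 fold changes were -0.55, -0.54, -0.47, -0.24 and -0.35 (SE at most 0.07, largest adjusted p = 0.011), against a single call at 24 h, 0.28 with 2 µM atirmociclib. ATP5MC2 (chr12:53632726-53677408, minus strand), the most abundant of the 3, was the only member called higher with all treatments at 24 h and lower with all at 72 h. At 24 h it had 4537, 5012 and 4924 in vehicle, 5388, 5239 and 5705 with 1 µM AU2-94, 5373, 5525 and 5594 with 2 µM AU2-94, 5472, 5974 and 5384 with 1 µM atirmociclib, 5978, 5963 and 5621 with 2 µM atirmociclib, and 5809, 5728 and 5896 with ribociclib. At 72 h it had 5693, 5203 and 5236 in vehicle, 4399, 4579 and 4578 with 1 µM AU2-94, 4454, 4306 and 4614 with 2 µM AU2-94, 4453, 4477 and 4527 with 1 µM atirmociclib, 4497, 4469 and 4353 with 2 µM atirmociclib, and 4428, 5047 and 4567 with ribociclib. The vehicle libraries were the lowest 3 at the first time and the highest 3 at the second. These gave log2 fold changes of 0.17, 0.19, 0.22, 0.28 and 0.27 and then -0.25, -0.27, -0.26, -0.28 and -0.20, and the first of them (AU2-94 1 µM at 24 h, adjusted p = 0.011) was lost without replicate 3 of that group or vehicle replicate 1 (0.13 to 0.14). ATP5MC3 had log2 fold changes of -0.43, -0.39, -0.23, -0.20 and -0.37 at 72 h, of which those with atirmociclib were lost in 2 (1 µM) and 4 (2 µM) of 6 omissions (-0.19 to -0.17 and -0.20 to -0.13).

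Some of the called members lie across other annotated genes, and the strand setting of the counting is not given in the sources used here. NDUFS7 shares 2693 exon bases (36.1% of its exons) with ENSG00000248015, whose mean normalised count was 48.1. UQCR10 shares 239 (24.5%) with ENSG00000287967 (mean 0.372). NDUFA2 shares 124 (8.41%) with TMCO6 (mean 348) and 54 (3.66%) with IK (mean 2970). NDUFA7 shares 68 (4.89%) with RPS28 (mean 17993). Some members called higher with all 5 treatments at 24 h have neighbours with a mean above their own. NDUFC1 (mean 1344) shares 584 (19.5%) with NAA15 (mean 2555). NDUFB8 (mean 726) shares 325 (16.3%) with HIF1AN (mean 1159). NDUFB11 (mean 1928) shares 246 (7.24%) with RBM10 (mean 2171). ATP5PF (mean 2182) shares 692 (34.4%) with GABPA (mean 787). All these neighbours lie on the opposite strand. UQCRHL, a near-copy of UQCRH 98.6% identical to it over 276 bases, was listed at 277 to 897 and was called in none of the comparisons with vehicle, and its reads cannot be told apart from those of UQCRH with certainty.

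The turn between the time points was tested directly as the effect at 72 h minus the effect at 24 h in 1 fit of all 36 libraries. For the mean of the 5 treatments, where 14.9% of all genes were called higher and 14.5% lower, 63 of 80 nuclear members were called lower and 0 higher, with a median change of -0.30 (log2). Of the 13 mitochondrial genes, MT-CO2 was called lower (-0.20) and MT-ND5 higher (0.14). Per treatment 54, 47, 44, 39 and 48 nuclear members were called lower, where 11.5%, 9.28%, 10.6%, 9.96% and 9.66% of all genes were. Without ribociclib 72 h replicate 2 the ribociclib count was 62 in place of 48 and the count for the mean 65. Among the named members flagged below, the largest changes were those of ATP5MC1 (-0.55, SE 0.08, adjusted p = 1.7e-06) and NDUFS7 (-0.54). The lowest value of any nuclear member was -0.66. In sign, the mean effect of 57 of 80 nuclear members was above 0 at 24 h and below 0 at 72 h, 17 were above 0 at both times, 5 below 0 at both and 1 turned the other way. Of the mitochondrial genes 11 of 13 were above 0 at both times and 2 below 0 at both, on the deposited scale.

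**Figure D4:**
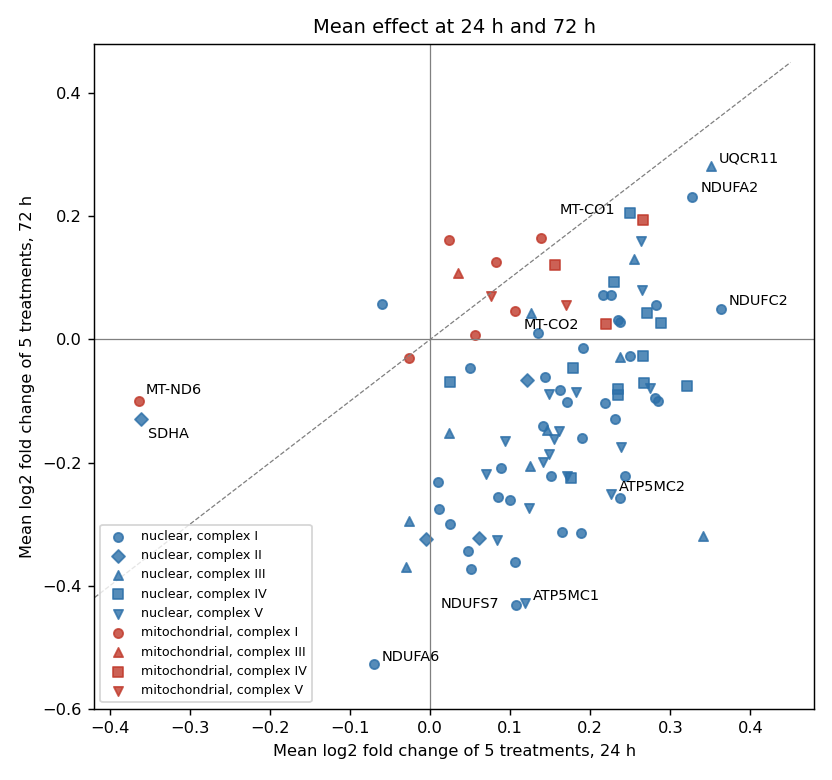
Mean log2 fold change of the 5 treatments against vehicle at 24 h (x axis) and 72 h (y axis) for each tested member, by genome and complex. On the dashed diagonal both effects are equal. Of 80 nuclear members 78 lie below the diagonal and 57 in the lower right quadrant, whereas 11 of 13 mitochondrial genes are above 0 on both axes before quantile normalisation.

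The vehicle cells, which are the reference of both effects, also changed between the harvests. From 24 h to 72 h in vehicle, where 3.85% of all genes were called higher and 3.64% lower, 9 of 13 mitochondrial and 18 of 80 nuclear members were called higher and 0 lower, with median log2 fold changes of 0.20 and 0.16. The total of 27 fell to 15 without vehicle 24 h replicate 1. NDUFS7 rose by 0.31 (SE 0.07, adjusted p = 0.0083), NDUFS6 by 0.28 (adjusted p = 0.026), MT-ND3 by 0.29 (adjusted p = 0.027) and MT-CO2 by 0.26 (adjusted p = 0.00019). The share of nuclear members in the library was 0.912% ± 0.023 in vehicle at 24 h and 0.981% ± 0.017 at 72 h, while with 2 µM AU2-94 it was 0.957% and 0.876% and with ribociclib 1.002% and 0.921% ± 0.061, the last with 0.991% in the library that stood apart and 0.881% to 0.890% in the other 2. Time and seeding density cannot be told apart in any of these values.

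The compounds were compared with each other in 6 comparisons per time point, each at matched dose or between doses of 1 compound, with p-values adjusted over all genes within a comparison. All members called between atirmociclib and AU2-94 at 2 µM on the deposited scale were higher with atirmociclib. At 24 h, where 9.44% of all genes were called in either direction, 10 of 13 mitochondrial and 16 of 80 nuclear members were higher with atirmociclib and 0 lower (medians 0.22 and 0.14). At 72 h (19.8% of all genes) 10 mitochondrial and 27 nuclear members were higher and 0 lower (medians 0.37 and 0.17). These totals of 26 and 37 were 13 and 21 under quantile normalisation, where 1 of the 13, NDUFB4, was lower with atirmociclib, and the first was 16 without AU2-94 2 µM replicate 1. Among the nuclear members called at 24 h, ATP5F1D, the delta subunit in the stalk of the ATP synthase, differed most. It had 3979.8, 3844 and 3591 normalised counts with atirmociclib and 2629, 3253 and 3078 with AU2-94, a log2 difference of 0.35 (95% interval 0.21 to 0.50, adjusted p = 0.0033). At 72 h the largest nuclear difference was in ATP5MK, a small subunit at the dimer interface, with 3138, 2762 and 2894 normalised counts for atirmociclib and 2339.6, 1981 and 2074 for AU2-94, a log2 difference of 0.46 (0.23 to 0.70, adjusted p = 0.0062). The groups did not overlap in either gene. MT-ND3 (0.49), MT-ND4 (0.45) and MT-ATP6 (0.43) had the largest mitochondrial differences at 72 h on the deposited scale.

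At 1 µM the same pair of compounds gave a single call at 24 h. No mitochondrial gene was called (0 of 13, and 4 at an unadjusted p under 0.05), and of the nuclear members only NDUFB4, an accessory subunit of complex I, was called, where 4.64% of all genes were. It had 4959, 5057 and 4989 normalised counts with atirmociclib and 5969.8, 5383 and 6038 with AU2-94, which made it lower with atirmociclib by a log2 difference of -0.21 (95% interval -0.33 to -0.09, adjusted p = 0.035). At 72 h 10 mitochondrial genes were higher with atirmociclib (median 0.24), beside 2 nuclear members, UQCRC2, a core subunit of complex III (0.23, adjusted p = 0.0072), and NDUFA13 (0.19, adjusted p = 0.043), where 8.24% of all genes were called. Under quantile normalisation 1 of these 12 was called, MT-ND4L, and under the replicate block 1 nuclear member was.

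Between ribociclib and 2 µM AU2-94 at 24 h limma called 0 members, where 0.0372% of all genes were called, and 9 mitochondrial and 26 nuclear members had an unadjusted p under 0.05, with log2 differences of 0.03 to 0.19 and -0.18 to 0.26. The 95% interval of a typical nuclear member reached 0.13 to each side of its difference, which bounds what could be seen. At 72 h 4 members were higher with ribociclib, MT-CO3 (0.16), MT-ND3 (0.38), NDUFC2 (0.22) and NDUFA7, an accessory subunit of complex I (0.29, 95% interval 0.14 to 0.45, adjusted p = 0.03), where 3.34% of all genes were called, with 0 members called without ribociclib replicate 2 and 2 under the replicate block. Atirmociclib and ribociclib at 2 µM differed in CYC1, cytochrome c1 of complex III (0.21, 95% interval 0.12 to 0.29, adjusted p = 0.0066), and NDUFV3 (0.18, adjusted p = 0.036) at 24 h, both higher with atirmociclib, where 4.64% of all genes were called. At 72 h 9 mitochondrial and 8 nuclear members were higher with atirmociclib (9.18% of all genes), which became 10 and 16 without ribociclib replicate 2 and 5 nuclear members under the replicate block, while with totals over non-mitochondrial genes set equal 4 nuclear members were higher and 1 lower. ATP5F1D differed most among the nuclear members (0.31, 95% interval 0.18 to 0.44, adjusted p = 0.0026).

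Between the doses of 1 compound, members were called only for atirmociclib at 72 h. Between 2 and 1 µM of AU2-94 limma called 0 members at 24 h (0.409% of all genes) and 0 at 72 h (0% of all genes), and 0 mitochondrial and 3 nuclear members at 24 h and 0 and 1 at 72 h had an unadjusted p under 0.05. Between 2 and 1 µM of atirmociclib limma called 0 members at 24 h (0.0124% of all genes), where 9 mitochondrial and 24 nuclear members had an unadjusted p under 0.05 and the mitochondrial median was 0.13. At 72 h (2.19% of all genes) 1 of 13 mitochondrial and 4 of 80 nuclear members were called. Those higher at the larger dose included MT-ND4 (0.19), ATP5F1D (0.31, 95% interval 0.18 to 0.43, adjusted p = 0.013), CYC1 (0.22) and the beta subunit ATP5F1B (0.19). Between 1 and 4 members were called when a library was left out and 3 under the replicate block. CYC1 and ATP5F1D were called lower than in vehicle at 72 h with the other 4 treatments and not with the larger atirmociclib dose, with log2 fold changes against vehicle of -0.31, -0.26, -0.24, -0.02 and -0.19 for CYC1 and -0.31, -0.34, -0.24, 0.06 and -0.25 for ATP5F1D.

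Promoters of nuclear subunit genes often hold sites for a few shared factors, and the letters of these sites were searched in 250 bases before to 50 bases after the RefSeq start (GRCh38.p14) on both strands. The promoters of 69 of the 88 nuclear members were matched, against 27305 promoters in all. CCGGAAG, the core of the GABP (NRF2) site, was in 29.0% of member promoters (20) and 10.7% of all promoters. AAGATGGCG of YY1 was in 11.6% (8) and 1.85%, GCATGCGC of NRF1 in 18.8% (13) and 3.27%, TGACGTCA of CREB in 7.25% (5) and 1.98%, and TTTCCCGC of E2F in 4.35% (3) and 1.66%. No found motif overlapped another. The 8 members with the YY1 letters were ATP5PF, NDUFA6, NDUFA7, NDUFA9, NDUFS4, NDUFS7, SDHB and UQCRC1, with a median mean log2 fold change of -0.27 at 72 h, against -0.09 for the other matched members, and of 0.07 against 0.18 at 24 h. The 13 with the NRF1 letters had medians of -0.25 against -0.10 at 72 h and 0.11 against 0.18 at 24 h, and the 20 with the GABP letters -0.10 against -0.14 at 72 h and 0.19 against 0.16 at 24 h. No test was made of these medians, and a match is not a bound site.

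From members called with all 5 treatments at 24 h or 72 h, 4 promoters with the GABP letters are shown as examples. They run 5′ to 3′ on the strand of the gene. Each is the 100 bases before the RefSeq start, but for ATP5PD before the GENCODE gene, which starts further upstream. The match is in capitals (CCGGAAG or its reverse complement). UQCR11 holds these letters in such a stretch too, was called higher with all 5 treatments at 24 h, and is not shown. COX5B (chr2:97645962-97646061, plus strand), a subunit of complex IV, and COX6B1 (chr19:35648223-35648322, plus strand) were called higher with all 5 treatments at 24 h. COX8A (chr11:63974520-63974619, plus strand) and ATP5PD (chr17:75046986-75047085, minus strand), a stalk subunit of the ATP synthase, were called lower with all 5 at 72 h. COX5B and ATP5PD were picked after their values were seen, with log2 fold changes of 0.24, 0.26, 0.22, 0.30 and 0.32 at 24 h and -0.30, -0.30, -0.33, -0.24 and -0.19 at 72 h.
COX5B: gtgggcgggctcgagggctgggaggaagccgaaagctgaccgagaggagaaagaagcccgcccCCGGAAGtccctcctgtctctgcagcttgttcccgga
COX6B1: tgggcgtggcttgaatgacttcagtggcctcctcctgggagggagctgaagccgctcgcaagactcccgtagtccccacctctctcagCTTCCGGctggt
COX8A: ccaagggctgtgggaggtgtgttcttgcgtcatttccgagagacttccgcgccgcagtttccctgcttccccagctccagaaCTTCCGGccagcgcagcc
ATP5PD: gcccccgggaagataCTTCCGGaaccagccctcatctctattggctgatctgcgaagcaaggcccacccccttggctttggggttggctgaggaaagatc

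Genes that make or serve the chain were described from fixed lists. Among them was the mitochondrial ribosome, the machine that translates the mRNAs of the 13 mitochondrial genes. Most of its calls at 72 h went in the same direction as those of the nuclear subunits. At 24 h 7, 8, 13, 26 and 19 of its 78 tested proteins were called higher and 4, 4, 6, 4 and 4 lower across the 5 treatments, where 14.3% to 18.6% and 13.5% to 16.2% of all genes were. At 72 h 0, 0, 0, 4 and 1 were called higher (14.2% to 20.9% of all genes) and 55, 54, 51, 36 and 37 lower (15.3% to 19.8% of all genes), with medians of -0.28, -0.28, -0.28, -0.20 and -0.22. With all 5 treatments 25 were lower and 0 higher at 72 h (8.59% and 8.54% of all genes), and 2 lower and 5 higher at 24 h (7.82% and 9.2%). Without ribociclib replicate 2 the 25 were joined by MRPL15, MRPL20 and MRPS18B. MRPL18, a protein of the large subunit, had 1480.0 to 1637 normalised counts in vehicle and 798 to 1041 in treated libraries at 72 h, and the mean log2 fold changes of MRPL18 and MRPL9 were -0.78 and -0.68. At 24 h MRPL30 was highest and MRPS6 lowest of those called in all 5, at mean log2 fold changes of 0.46 and -0.39.

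Of 31 tested genes for mitochondrial DNA maintenance and expression 2 were higher and 1 lower with all 5 treatments at 24 h, and 1 higher and 5 lower at 72 h. For this and the following lists the shares of all tested genes called so were 9.2% and 7.82% at 24 h and 8.54% and 8.59% at 72 h, and counts near these shares are no result about a list. MGME1, a nuclease of mitochondrial DNA replication, fell at 24 h (687 to 703 in vehicle and 358 to 515 in treated libraries, mean log2 fold change -0.71), MTERF4, which acts in mitochondrial ribosome assembly, fell at 72 h (1632 to 1652 and 936 to 1384, -0.60), and REXO2, a mitochondrial oligoribonuclease, rose at both (0.54 and 0.51). Among 50 assembly factors 3 were higher and 2 lower with all 5 at 24 h, including COX20 (0.34) and ACAD9 (-0.33), and 1 higher and 6 lower at 72 h, including NDUFAF4 (-0.54) and UQCC4 (-0.46). Among 12 genes of the mobile carriers cytochrome c and ubiquinone 1 was higher and 0 lower at 24 h, COQ8A (0.32), and 1 higher and 2 lower at 72 h. Cytochrome c itself, CYCS, had 4359.6 to 5134 normalised counts in vehicle and 2684 to 3611 in treated libraries at 72 h, without overlap, and a mean log2 fold change of -0.62, and COQ2 had -0.42.

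Of 10 tested regulators of mitochondrial biogenesis 0 were higher and 0 lower with all 5 treatments at 24 h, and 1 was higher and 2 lower at 72 h, so that the higher count was near the share of all genes. The coactivator gene PPARGC1B had 899 to 1065 normalised counts in vehicle and 516 to 639 in treated libraries at 72 h (mean log2 fold change -0.84), and GABPB1, a subunit of GABP, had a mean of -0.50. Of 6 genes linked to hypoxia 2 were higher with all 5 treatments at both times, and 0 were lower at 24 h and 1 at 72 h. NDUFA4L2, a relative of the complex IV subunit NDUFA4 that is induced in hypoxia, had 41.1 to 113 in vehicle and 201 to 3059 in treated libraries at 24 h, and 25.9 to 34.9 and 168 to 1106 at 72 h. Log2 fold changes of NDUFA4L2 were 3.81 to 5.18 at 24 h and 3.49 to 5.12 at 72 h. The lowest at 24 h, with 2 µM atirmociclib, rested on replicate 3 (201, against 2497 and 1869 in replicates 1 and 2) and was 4.95 without it, while NDUFA4 itself had a mean of 0.27 at 24 h. PDK1, a kinase that inhibits pyruvate dehydrogenase, had 919 to 1364 in vehicle and 1358 to 2224 in treated libraries at 24 h. At 72 h it had 1038 to 1289.9 in vehicle and 1675 to 2869 in treated libraries. Its mean log2 fold changes were 0.68 and 0.89. At 24 h its calls with 2 µM atirmociclib and ribociclib were each lost in 2 of 6 omissions (0.37 to 0.40 and 0.34 to 0.44). Vehicle and treated libraries of PDK1 overlapped slightly at 24 h and did not at 72 h, while those of NDUFA4L2 did not overlap at either time.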

How the data were processed

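RNA sequencing of LNCaP cells from 36 libraries in 12 labelled groups was used. Per the labels and the study's methods, the authors ran nf-core/rnaseq, aligned paired reads to GRCh38 with STAR 2.6.1d and used DESeq2, and they deposited a normalised count per gene and library, a signal in units close to reads. The counter, annotation release and strand setting are not given in the sources used here. Of the low values (under 30) 17.9% to 49.1% per library lay within 2% of a whole multiple, so whole reads were not recovered and no count test was run. The reads behind a value, and hence its counting error, are unknown, and the precision was taken from the 3 replicates.

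Genes with at least 10 normalised counts in at least 3 libraries entered limma 3.58.1 (R 4.3.3, lmFit and eBayes with a trend) as log2(normalised count + 1), which covered 16137 genes at 24 h, 16341 at 72 h and 16850 over both. Each time point was fitted with its 6 groups, and p-values were adjusted by Benjamini-Hochberg within each comparison over all tested genes. Sums, ratios and lists were described without tests. On simulated data for atirmociclib 2 µM against vehicle at 24 h (16015 genes), 81.2% of genes planted at a log2 fold change of 0.5 and 97.6% at 1 were recovered. Of the calls 96.2% were planted, and 0 were made in an unchanged group. Changes under 0.5, which most called members had, and the other comparisons were not simulated, so recovery there is not known.

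The labels give the replicate number as a batch, but the main fits held no term for it and did not pair the libraries. Deviations from group means of libraries with the same number correlated over genes at 0.0018 on average at 24 h (45 pairs, -0.09 to 0.11) and at -0.0022 at 72 h (-0.08 to 0.05), and the replicate block was an alternative fit. Other alternatives covered the pseudocount, filter, normalisation, trend, libraries fitted and each library left out.

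Members and lists were chosen with earlier results of these data known. Genes named were the 13 mitochondrial genes, NDUFA1, the SDH genes and tissue paralogues, and 2 genes per related list. Named too were the 5 nuclear members, for each time point and sign, that changed most on average among those called in all 5 treatments. The last were the nuclear members with the largest difference among those called in each compound comparison. NDUFA13, NDUFV3, ATP5F1B, NDUFA12, NDUFC1, NDUFB8, NDUFB11, COX5B, ATP5PD and the YY1 group were named after their values were seen. Of the related lists 1 gene, FASTKD4, was not matched. Positions came from GENCODE release 44, exon overlaps from the same annotation, and BLAST 2.17.0 found stretches of 100 bases or more with an identity of at least 98% between genes.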

Additional observations from a re-analysis of the deposited data

Results flagged for a closer look

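The effect of the 5 treatments, taken as their mean, differed between 24 h and 72 h in 24 of the named members by a test of the difference itself (limma, 36 libraries, adjusted p at most 0.05). Of all tested genes 14.9% were called higher and 14.5% lower in it. Part of the named members were picked by their calls at 24 h or 72 h in these same data, which favours a difference. Their number is thus no result by itself. Of all 80 tested nuclear members, chosen without measured values, 63 were called. The values are the effect at 72 h minus the effect at 24 h on the log2 scale. In complex I they were -0.32 for NDUFA1, -0.46 for NDUFA6, -0.36 for NDUFA7, -0.36 for NDUFB4, -0.31 for NDUFC2, -0.42 for NDUFS6 and -0.54 for NDUFS7. In complex II they were -0.32 for SDHB, -0.19 for SDHC and -0.38 for SDHD, and in complex III -0.33 for CYC1 and -0.34 for UQCR10. In complex IV they were -0.26 for COX4I1, -0.31 for COX6A1, -0.32 for COX6B1, -0.40 for COX7A2L, -0.22 for COX7B and -0.40 for COX8A. In complex V they were -0.29 for ATP5F1D, -0.55 for ATP5MC1, -0.48 for ATP5MC2 and -0.41 for ATP5MC3. Of the mitochondrial genes MT-CO2 had -0.20 (SE 0.05, adjusted p = 0.0021) and MT-ND5 had 0.14 (SE 0.04, adjusted p = 0.018). The 2 time points also differed in seeding density, whose part was not tested.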

How the results depend on the processing

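Of 552 summary results recomputed under another setting, 498 stayed within 1.5 times the reported count or within the spread of the replicates and 54 did not, and of 414 recomputed without 1 library 361 did and 53 did not. Counts of called members are given unless medians are named, the cause was not tested except where a construction is given, and values at 24 h and 72 h come from separate fits.

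Quantile normalisation, which ties the most abundant genes to shared values, moved the mitochondrial results most. Mitochondrial medians were -0.040 (AU2-94 1 µM), -0.018 (atirmociclib 1 µM), 0 (atirmociclib 2 µM) and -0.054 (ribociclib) at 24 h, and -0.015, 0.032 and 0.015 with atirmociclib 1 and 2 µM and ribociclib at 72 h. Mitochondrial calls were 3 for atirmociclib 1 µM and 2 for atirmociclib 2 µM at 24 h, 2 for AU2-94 1 µM and 1 each for both atirmociclib doses and ribociclib at 72 h. Calls over all members were 13 at 24 h (12 higher and 1 lower) and 21 at 72 h for atirmociclib against AU2-94 at 2 µM, 1 at 1 µM at 72 h, 1 for ribociclib against AU2-94, 5 for atirmociclib against ribociclib and 2 between atirmociclib doses at 72 h, and 14 for vehicle. Directions that reversed were MT-ND2 at -0.054 (AU2-94 2 µM, atirmociclib 2 µM and ribociclib) and -0.040 (atirmociclib 1 µM) at 24 h and -0.0064 and -0.032 (atirmociclib 1 and 2 µM) at 72 h; MT-ND3 at -0.063 (atirmociclib 2 µM, 24 h); MT-ND4 at -0.25 (AU2-94 1 µM, atirmociclib 1 µM and ribociclib) and -0.083 (atirmociclib 2 µM) at 24 h and -0.048 (atirmociclib 1 µM) at 72 h; and MT-ND5 at -0.058 (atirmociclib 2 µM, 24 h) and -0.037 (atirmociclib 1 µM, 72 h). MT-CYB reversed at -0.015 (atirmociclib 1 µM, 72 h), MT-CO2 at -0.063 (both atirmociclib doses, 72 h), MT-CO3 at -0.12 (all treatments, 24 h) and -0.032 (atirmociclib 1 µM, 72 h), and MT-ATP6 at -0.094 (AU2-94 1 µM) and -0.063 (atirmociclib 1 µM and ribociclib) at 24 h and -0.037 (atirmociclib 1 µM) at 72 h.

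With equal totals over non-mitochondrial genes, mitochondrial calls were 2 and 7 for atirmociclib 1 and 2 µM at 24 h (median 0.17 for the latter), 2 for AU2-94 1 µM and 1 for ribociclib at 72 h, nuclear calls were 24 for atirmociclib 1 µM at 24 h (22 higher and 2 lower), and calls over all members were 1 for atirmociclib 2 µM against ribociclib at 24 h, 7 for atirmociclib against AU2-94 at 1 µM, 0 for ribociclib against AU2-94 and 3 between atirmociclib doses at 72 h, and 15 for vehicle. Mitochondrial calls under that setting were 1 higher and 2 lower for AU2-94 1 µM and 1 and 3 for 2 µM at 24 h, and 1 and 1 for 2 µM at 72 h. Without a filter beyond a value above 0, mitochondrial calls were 2 for AU2-94 1 µM at 24 h and 0 for AU2-94 1 µM, AU2-94 2 µM and ribociclib at 72 h, and calls over all members were 0 for atirmociclib against AU2-94 at 1 µM and 1 for atirmociclib against ribociclib at 24 h, 1 for ribociclib against AU2-94 and 3 between atirmociclib doses at 72 h. Without the trend these became 1 (AU2-94 1 µM) and 2 (atirmociclib 1 µM) mitochondrial calls at 24 h and 0 (AU2-94 2 µM and ribociclib) at 72 h, and over all members 0 and 1 at 24 h and 0 and 2 at 72 h in the same comparisons. With only the 2 groups compared, mitochondrial calls at 72 h were 2, 1 and 0 for AU2-94 1 µM, AU2-94 2 µM and ribociclib. TMM factors gave 3 calls between atirmociclib doses at 72 h. The replicate block gave 1 mitochondrial call for ribociclib, 2 for ribociclib against AU2-94 and 3 between atirmociclib doses at 72 h, and among counts by genome it gave 1 nuclear call for atirmociclib against AU2-94 at 1 µM, 0 mitochondrial calls for ribociclib against AU2-94 and between atirmociclib doses, 5 nuclear calls for atirmociclib against ribociclib at 72 h and 1 mitochondrial call for the change of the 2 µM AU2-94 effect. It removed the calls of 11 single values against vehicle, which were MT-ND3, CYC1 (ribociclib), COX6B1, MT-CO2 (both AU2-94 2 µM), MT-CO3 and NDUFA1 (both AU2-94 1 µM) and ATP5MC3 at 24 h and MT-CO3 (ribociclib), COX7A2L, COX6B1 (both AU2-94 2 µM) and NDUFB4 (AU2-94 1 µM) at 72 h, those of MT-ND3 and ATP5MC3 being with atirmociclib 2 µM, and it changed no other call of a named member against vehicle.

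Of 213 calls of named members against vehicle, 74 were lost in at least 1 of 6 omissions of a library and 0 changed sign. Leaving out 1 library gave mitochondrial calls of 1 to 3 (AU2-94 1 µM), 2 to 4 (AU2-94 2 µM) and 2 to 7 (atirmociclib 1 µM) at 24 h, where nuclear calls were 22 to 39, 16 to 36 and 25 to 42. At 72 h mitochondrial calls were 1 to 3 (AU2-94 1 µM), 0 to 3 (AU2-94 2 µM, median -0.11 to -0.029) and 1 to 3 (ribociclib, nuclear median -0.16 to -0.052). Over all members there were 0 to 2 calls for atirmociclib against AU2-94 at 1 µM, 16 to 24 at 2 µM, 0 to 1 for ribociclib against AU2-94 and 1 to 1 for atirmociclib against ribociclib at 24 h, 0 to 5, 13 to 26 and 1 to 4 for the last 2 pairs and the atirmociclib doses at 72 h, and 15 to 24 for vehicle. With 3 libraries a group, differences under a log2 of about 0.1 in mitochondrial genes and 0.15 in nuclear ones lie within the intervals.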
